A study of Mus musculus with 12 samples.

Results

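Spp1, Ibsp, Akr1c18, Lxn, Rhox5, Prl2c2, Lgals1 and Cd63 were followed in tumour cells recovered from mouse lungs. These 8 genes of the 54146 in the table were chosen by their levels: they had been seen at high TPM in growing cells and at low TPM in at least 1 of the dormant groups. That choice used the dormant libraries, so every member value in a dormant group is a description without a test, and the comparison of growing cells between hosts is the only member comparison that was tested. TPM is a relative transcript level with gene length divided out, which sums to the same total in each library. The cells were D2A1, a mouse mammary carcinoma line carrying a doxycycline-inducible histone H2B fused to green fluorescent protein (GFP) and labelled with CellVue Claret (CVC), a membrane dye that is diluted by division. After tail vein injection, GFP+ cells that kept the dye were sorted as dormant and GFP+ cells that had lost it as growing, in aliquots of 50 cells. Hosts were female mice of 6 to 8 weeks, either WT (called flox controls by the study) or Tgfbr2 KO, in which Cre driven by the Lysozyme 2 promoter deleted the floxed Tgfbr2 gene in myeloid cells. The tumour cells were the same line in both hosts, and since the deletion lies in host cells, no tumour library checks it. This gave 12 libraries in 4 groups of 3, growing WT, growing KO, dormant WT and dormant KO, and the labels name no animal for a library, and the study describes the replicates as biological, from separate mice. As the labels do not tie a library to a mouse, the p-values here measure the spread between these libraries.

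Secreted phosphoprotein 1 (Spp1, osteopontin) and integrin-binding sialoprotein (Ibsp, bone sialoprotein) are acidic glycoproteins of mineralised matrix that carry an RGD motif and bind integrins, and osteopontin also binds CD44. Both are made by osteoblasts, and both are often produced by carcinoma cells. Akr1c18 is an aldo-keto reductase that inactivates progesterone, latexin (Lxn) inhibits carboxypeptidases, and Rhox5 is an X-linked homeobox gene of the reproductive tract that is often switched on in tumour lines. Prl2c2 encodes proliferin, a secreted placental hormone of the prolactin family. Galectin-1 (Lgals1) binds beta-galactosides at the cell surface, and Cd63 is a tetraspanin of late endosomes and exosomes.

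By the library names in the labels, the labelled WT libraries are of batch 1 and the labelled KO libraries of batch 2. A difference between hosts cannot be told apart from one between batches in these 12 libraries. The table also has 6 columns whose names read WT and batch 2 for the same kinds of cells, but they match no labelled sample and were not used. By contrast, growing and dormant libraries of 1 host share a batch. The number of genes above 0 ranged from 11325 to 13242 in dormant WT, the lowest group, and from 14770 to 15315 in dormant KO. Such relative values do not hold the sequencing depth, and the number of reads behind each is unknown. Differences are given on the log2(TPM + 1) scale, which understates the change of low genes, and a gene was called where the limma adjusted p (Benjamini-Hochberg, over 13002 genes tested, two-sided) did not exceed 0.05 and the difference reached 1 in size. The median over all tested genes was 0.02 for growing KO against growing WT, 0.17 for dormant KO against dormant WT, -0.35 for dormant WT against growing WT and -0.32 for dormant KO against growing KO. Scaling libraries by the median ratio moved the last 3 medians to 0.50, -0.28 and 0.09, and quantile normalization moved them to -0.14, 0.04 and -0.14. As for the label, the keratins Krt8 and Krt18 were above 0 in all 12 libraries, whereas Krt14 and Krt5 were at 0 in the growing and dormant WT libraries and Epcam did not exceed 1.12 TPM there.

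The upstream sequences of Spp1, Akr1c18 and Lxn are shown because these members had the most alike levels across the 12 libraries. They come from RefSeq (GRCm38.p6), written 5′ to 3′ on the coding strand and ending before the start of the gene in GENCODE M21. Capitals mark matches, on either strand, to any of 6 short motifs. These were the CCAAT box, the core of RUNX sites spelled TGTGGT, the TATA box spelled TATAAA, the GC box spelled GGGCGG, the AP-1 site spelled TGANTCA and the E-box spelled CACGTG, and no match of one motif overlapped a match of another in the printed windows.
Spp1, chr5:104434861-104435110, plus strand: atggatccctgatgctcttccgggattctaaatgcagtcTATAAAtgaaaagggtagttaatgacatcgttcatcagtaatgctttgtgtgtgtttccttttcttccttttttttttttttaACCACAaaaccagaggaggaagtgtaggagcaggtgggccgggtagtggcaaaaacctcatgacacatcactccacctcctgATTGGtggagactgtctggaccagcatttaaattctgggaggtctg
Akr1c18, chr13:4150655-4150896, minus strand: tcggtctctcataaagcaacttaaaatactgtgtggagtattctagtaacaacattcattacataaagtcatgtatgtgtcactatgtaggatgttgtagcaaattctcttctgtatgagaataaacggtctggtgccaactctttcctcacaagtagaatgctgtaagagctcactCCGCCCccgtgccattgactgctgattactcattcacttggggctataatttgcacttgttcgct
Lxn, chr3:67463927-67464157, minus strand: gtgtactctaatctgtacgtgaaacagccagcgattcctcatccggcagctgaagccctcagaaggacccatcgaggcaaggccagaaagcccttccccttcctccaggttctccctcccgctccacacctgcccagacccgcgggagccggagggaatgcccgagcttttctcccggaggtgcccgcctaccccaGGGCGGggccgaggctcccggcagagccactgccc

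In the Spp1 window the CCAAT box lay inverted at -46 to -42 and the RUNX core inverted at -128 to -123, counted from the RefSeq start, and the TATA box letters lay at -211 to -206. The GC box lay at -73 to -68 in Akr1c18, inverted, and at -54 to -49 in Lxn. Each of these short motifs is common: of 32851 mouse windows of 250 bases, 33.8% held the CCAAT box, 32.7% the GC box, 14.0% the RUNX core, 12.4% the TATA box, 6.75% the AP-1 site and 6.02% the E-box. Windows were matched for 6 of the 8 members, of which that of Rhox5 lies upstream of and apart from the GENCODE gene and that of Cd63 inside it, at other RefSeq start sites. The CCAAT box was found in 3 of them (Spp1, Ibsp and Rhox5), the TATA box in 2 (Spp1 and Ibsp), the RUNX core in 1 (Spp1), the GC box in 2 (Akr1c18 and Lxn), and the AP-1 and E-box letters in 0. No motif was shared by Spp1, Akr1c18 and Lxn. The whole 250-base Lxn window was rich in G and C (64.4%, with 16 CpG), against 43.6% for Spp1, 41.6% for Akr1c18 and a median of 52.4% over all windows.

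Spp1 (ENSMUSG00000029304.14) and Ibsp (ENSMUSG00000029306.8) lie on chromosome 5, plus strand, at 104435118 to 104441050 and 104299171 to 104311469 (GRCm38). The gap between them is 123648 bp and holds Mepe (104325329 to 104338611). Spp1 and Ibsp belong to a cluster that also holds Dspp, Dmp1 and Mepe, whose products are dentin and bone proteins. The levels of Spp1 and Ibsp differed by orders of magnitude. Spp1 read 31819, 34070 and 33623 TPM across the growing WT libraries and 32636, 31799 and 28980 TPM across growing KO, and it was first of all genes by mean TPM in both groups. In dormant WT it stood at 39951, 32482 and 33468 TPM, again first. The 3 dormant KO libraries were at 1236, 1509 and 1427 TPM, where Spp1 ranked 102. Thus the other 9 libraries ran from 28980 to 39951 TPM, and every dormant KO library lay far below them.

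Ibsp read 57.3, 54.0 and 46.2 TPM across growing WT and 40.3, 67.4 and 76.1 TPM across growing KO. It was listed at 0 in all 3 dormant WT libraries, and dormant KO had 4.47, 1.34 and 0.05 TPM. Ibsp was therefore low in both dormant groups, including the host in which Spp1 stayed at its growing level. Over the 12 libraries Pearson's r between Spp1 and Ibsp on the log2 scale was 0.39, as a description of 4 clusters of libraries. Of the other cluster genes, Dspp and Mepe were at 0 in all 12 libraries, and Dmp1 reached 2.27 TPM in growing KO and was at 0 in the dormant groups. Another transcript model on the same strand, Gm42793, overlaps Spp1 and shared 11.6% of the 50-base windows of its transcripts, whereas Ibsp shared none with another gene.

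Akr1c18 and Lxn formed a pattern with Spp1, but with dormant WT above growing WT. Akr1c18 (ENSMUSG00000021214.14, chromosome 13, 4132615 to 4150654, minus strand) had 1426, 1309 and 1379 TPM across growing WT, while the growing KO libraries read 1623, 1423 and 1309. Dormant WT had 2580, 2029 and 1549 TPM, and dormant KO 12.8, 11.6 and 22.9. Every dormant WT library was above every growing WT library, and the highest dormant KO library was far below all others. Akr1cl, the 1 other gene with which it shared any 50-base window (0.581% of them), did not exceed 0.47 TPM.

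Lxn (ENSMUSG00000047557.2, chromosome 3, 67457998 to 67463926, minus strand) had 5010, 4772 and 4989 TPM across growing WT, and growing KO read 4245, 3897 and 3698. Dormant WT had 6572, 7676 and 5786 TPM, and dormant KO 272, 395 and 320. The 4 groups of libraries did not overlap: dormant WT was highest and dormant KO lowest. Lxn overlaps Gfm1 on the other strand, and the use of strand in the counting was not stated. The height of Lxn in dormant WT over growing WT depended on scaling: the log2 difference was 0.43 as deposited and -0.04 after quantile normalization, whereas for Akr1c18 it was 0.55 and stayed between 0.37 and 0.74 in all 21 alternatives.

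Rhox5 (ENSMUSG00000095180.8, chromosome X, 37804842 to 37808876, plus strand) had 3142, 2970 and 3257 TPM across growing WT, and growing KO read 3607, 3759 and 3573. Dormant WT had 1616, 2319 and 2211 TPM and dormant KO 301, 260 and 313. The dormant libraries were below the growing libraries of the same host in both hosts, and dormant KO was the lowest group. Rhox5 was the only gene of its cluster at such levels: of the 23 Rhox genes in the table, 14 were at 0 in all 12 libraries, none of the other 22 passed the filter for testing, and the highest value among those was 11.01 TPM, for Rhox4e in 1 dormant WT library.

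Prl2c2 (ENSMUSG00000079092.4, chromosome 13, 12996125 to 13005383, minus strand) had the reverse host pattern in dormancy. Growing WT had 67.1, 53.8 and 55.8 TPM and growing KO 70.3, 87.2 and 57.8. Dormant KO kept 69.6, 51.0 and 79.0 TPM, while all 3 dormant WT libraries list the gene at 0. The dormant KO and growing KO libraries overlapped. These levels are uncertain, because 83.3% of its 50-base windows occur in transcripts of other genes (Prl2c3, Prl2c5, Prl2c1, Prl7d1 and Gm7040), among which RSEM divides reads by an estimate. Prl2c3, 1 of them, had 22.6, 2.63 and 19.4 TPM across growing WT, 57.8, 33.3 and 55.6 across growing KO and 36.3, 1.96 and 14.9 across dormant KO, and is also listed at 0 throughout dormant WT. Prl2c1 and Prl7d1 were at 0 in all 12 libraries and Prl2c5 reached 0.09 TPM, so none of these 3 copies was high where Prl2c2 is listed at 0. The level of Gm7040 was not examined.

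Lgals1 (ENSMUSG00000068220.6, chromosome 15, 78926725 to 78930465, plus strand) had 9129, 8535 and 8838 TPM across growing WT, and growing KO read 5343, 5306 and 5640. Dormant WT had 10851, 7992 and 7524 TPM, and dormant KO 1190, 1170 and 1244. Dormant WT spread around growing WT, growing KO lay below both, and dormant KO was lowest. Cd63 (ENSMUSG00000025351.14, chromosome 10, 128900989 to 128912822, plus strand) had 2029, 2190 and 2151 TPM across growing WT, and growing KO read 2763, 2780 and 2882. Dormant WT had 1821, 1657 and 1804 TPM, and dormant KO 664, 846 and 684. Its groups did not overlap, and growing KO was the highest. Cd63 shared 11.02% of its windows with other genes, and its pseudogene Cd63-ps had 91.0 to 114 TPM across growing KO against 24.8 to 41.6 in the other groups.

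**Figure D1:**
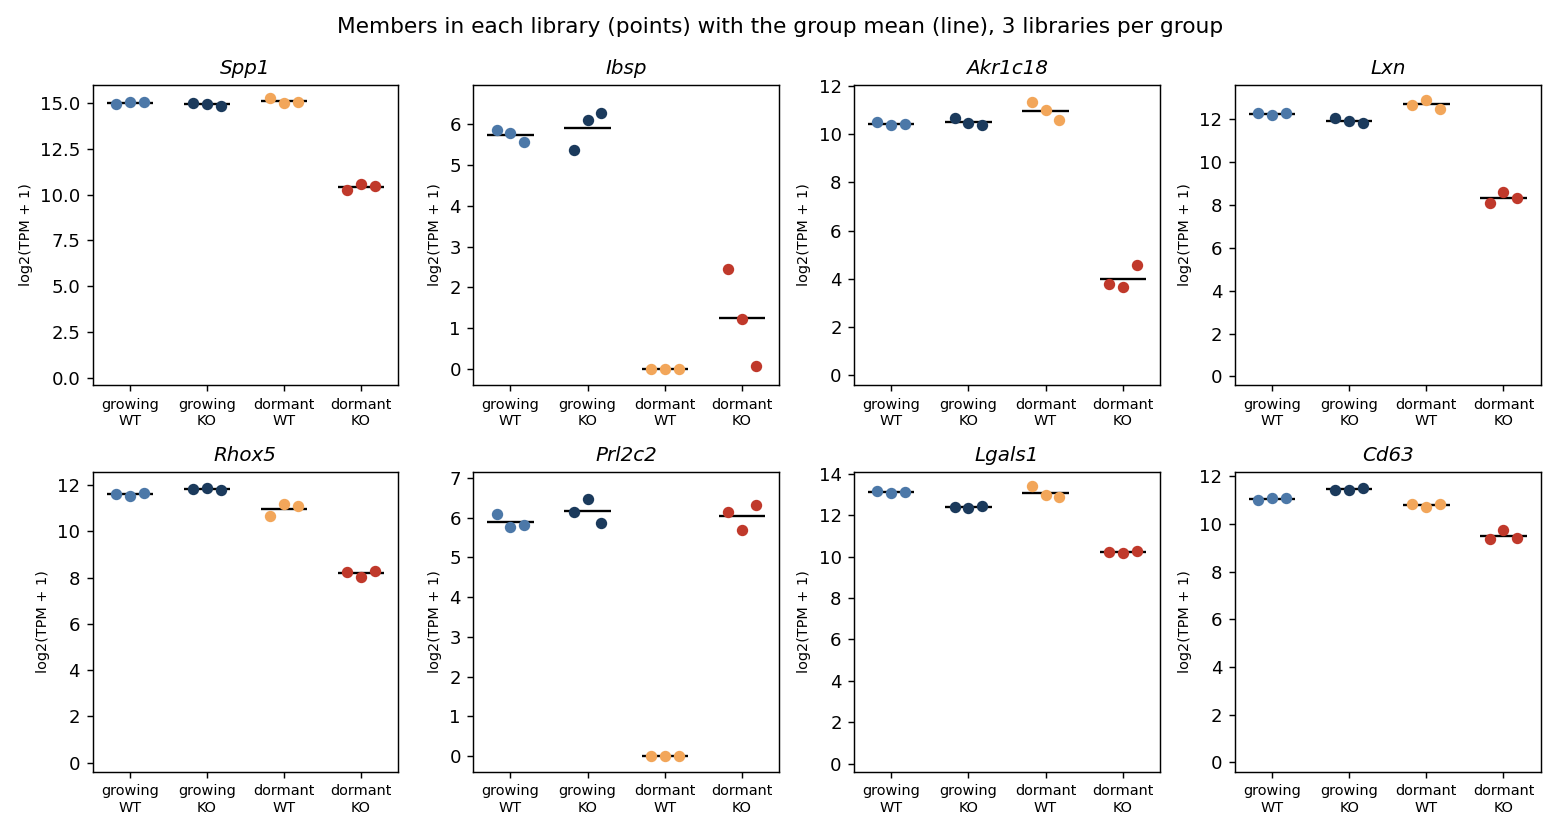
Levels of the 8 members as log2(TPM + 1), with 1 point per library and a line at the mean of the 3 libraries of each group. Spp1, Akr1c18, Lxn, Rhox5, Lgals1 and Cd63 are lowest in dormant KO, while Ibsp and Prl2c2 are listed at 0 in dormant WT.

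How much of the growing level was kept in dormancy was computed for each dormant library as a percentage of the growing mean of the same host, without a test. In WT hosts Akr1c18 stood at 150% ± 37.6 (SD, n = 3), Lxn at 136% ± 19.3, Spp1 at 106% ± 12.2, Lgals1 at 99.5% ± 20.4, Cd63 at 82.9% ± 4.24 and Rhox5 at 65.6% ± 12.1, and Ibsp and Prl2c2 at 0%. In that order neighbours from Akr1c18 to Cd63 differed by less than the sum of their SDs. The order of Lxn in WT hosts depended on scaling, since quantile normalization gave 97.8%. In KO hosts Prl2c2 stood at 92.7% ± 19.8, Cd63 at 26.04% ± 3.55, Lgals1 at 22.1% ± 0.702, Lxn at 8.34% ± 1.57, Rhox5 at 7.99% ± 0.767, Spp1 at 4.47% ± 0.45, Ibsp at 3.19% ± 3.71 and Akr1c18 at 1.09% ± 0.426. Median-ratio scaling raised these values to 142% for Prl2c2, 39.1% for Cd63, 33.5% for Lgals1, 12.5% for Lxn, 12.1% for Rhox5, 6.72% for Spp1 and 1.65% for Akr1c18, and quantile normalization gave 128% for Prl2c2. Within the same dormant KO libraries the values as deposited thus ran from 1.09% to 92.7%. Neighbours that differed by less than the sum of their SDs were Cd63 and Lgals1, Lxn and Rhox5, Spp1 and Ibsp, and Ibsp and Akr1c18. The Ibsp value ran from 1.13% to 4.74% when 1 library was left out, and was lowest without dormant KO replicate 1.

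For scale, 2555 tested genes had a growing WT mean of at least 40 TPM, and their median in dormant WT was 79.7% of it. Of these, 6 (0.235%) were listed at 0 in all 3 dormant WT libraries, Ibsp and Prl2c2 among them. In KO hosts the median of 2711 such genes was 55.9%, and 83 of them (3.06%) stood below 10%, among which were Spp1, Ibsp, Akr1c18, Lxn and Rhox5. The members were selected on these values, so their place in this distribution is no finding.

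**Figure D2:**
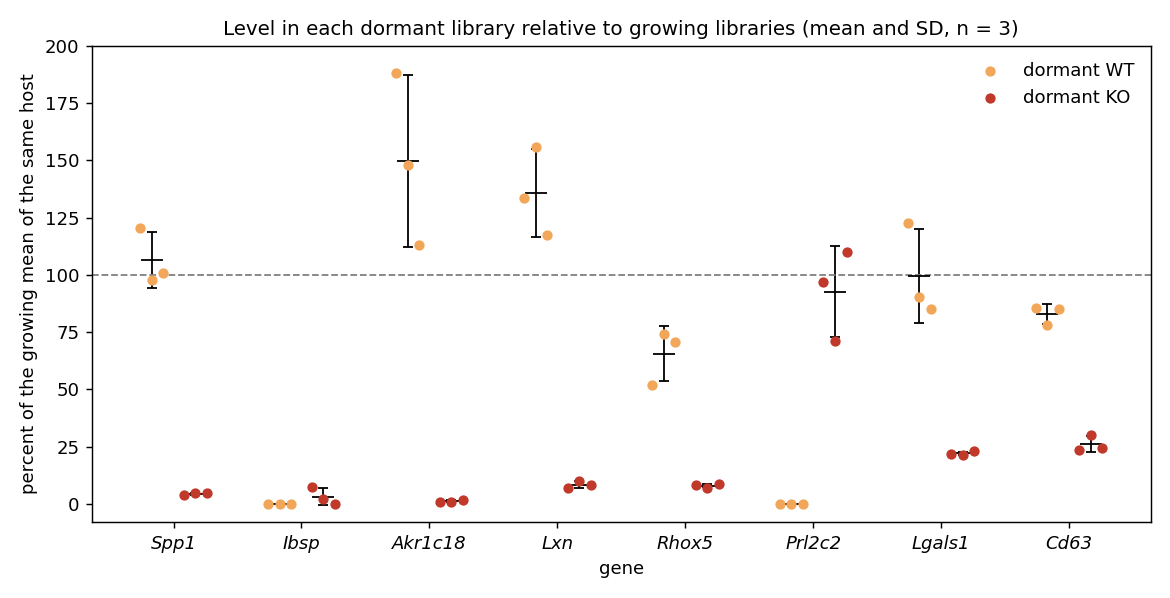
Level of each member in each dormant library (points) as a percentage of the growing mean of the same host, with mean and SD (n = 3) and a dashed line at 100%. Dormant WT libraries reach 188% for Akr1c18, and in dormant KO only Prl2c2 lies near 100%.

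The differences between groups are given here as descriptions beside the share of all genes. In dormant KO against dormant WT the log2 difference was -6.97 for Akr1c18, -4.66 for Spp1, -4.35 for Lxn, -2.85 for Lgals1, -2.80 for Rhox5 and -1.27 for Cd63, so that Spp1 was 25.4-fold and Akr1c18 130-fold lower by mean TPM. Under median-ratio scaling these differences ran from -6.46 for Akr1c18 to -0.76 for Cd63. The libraries did not overlap for 6 members that were lower, against 13.0% of all tested genes, and for 2 that were higher, Ibsp and Prl2c2, against 18.6%. The limma call was met by 9.39% of all genes in the lower and 12.9% in the higher direction. In dormant KO against growing KO the differences ran from -6.49 for Akr1c18 to -1.95 for Cd63 in 7 members whose libraries lay below without overlap (28.3% of all genes did), and it was -0.11 for Prl2c2, a value that turned to 0.48 under median-ratio scaling. There 9.48% of all genes were called lower and 8.31% higher.

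In dormant WT against growing WT, Ibsp, Prl2c2, Rhox5 and Cd63 were lower without overlap (19.4% of all genes were), Akr1c18 and Lxn higher (7.22% were), and Spp1 and Lgals1 overlapped. The log2 difference was -0.62 for Rhox5 and -0.27 for Cd63, beside a median of -0.35 over all genes. It was 0.08 for Spp1 and -0.03 for Lgals1, and both changed sign when 1 library was left out (Spp1 -0.01 without dormant WT replicate 1, Lgals1 up to 0.08 without dormant WT replicate 3). Here 5.67% of all genes were called lower and 1.85% higher. No fold is given for Ibsp or Prl2c2 against dormant WT, where both are listed at 0. The dormant KO libraries enter both of their comparisons, and those are not independent of each other.

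Growing cells from KO and WT hosts were compared to ask whether the members differed between hosts without dormancy, a comparison that the choice of members did not use. The log2 difference of Lgals1 was -0.70 (SE 0.106, limma adjusted p = 0.00742), at 5430 ± 183 TPM against 8834 ± 297 (SD, n = 3 each), with every KO library below every WT library. It did not reach the 2-fold difference asked of a call. Cd63 was higher in growing KO by 0.40 (SE 0.0935, limma adjusted p = 0.0858), at 2808 ± 64.2 against 2123 ± 83.9 TPM, also without overlap. Lxn differed by -0.32 (SE 0.13, limma adjusted p = 0.536) and Rhox5 by 0.22 (SE 0.126, limma adjusted p = 0.874), and their libraries did not overlap either. Quantile normalization reduced the Lxn difference to -0.05. The differences of the other 4 members, Spp1 (-0.09, SE 0.085), Ibsp (0.17, SE 0.603), Akr1c18 (0.08, SE 0.243) and Prl2c2 (0.27, SE 0.371), had limma adjusted p of 1 and overlapping libraries.

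All 8 members passed the filter of 1 TPM in 3 libraries, Ibsp and Prl2c2 through the groups in which they were present. In growing cells 0 of the 8 members were called by limma, 3 had an unadjusted p below 0.05, and 1 had an adjusted p within the threshold. Of the whole table tested, 0.715% met the call above and 0.261% below growing WT. Of the members 2 were lower without overlap (10.6% of all genes were) and 2 higher (13.3% were). With array weights the adjusted p was 8.15e-06 for Lgals1, 0.00191 for Cd63 and 0.0275 for Lxn, and over the 21 alternatives it reached 0.0471 for Lgals1 and 0.379 for Cd63, with no member called in any. Host and batch cannot be told apart in these values. Markers of other cells also differed between the growing groups: the summed TPM was 465 to 472 in growing KO against 55.9 to 97.6 in growing WT for alveolar type 2 cells, 311 to 567 against at most 46.95 for mesothelium, 479 to 585 against 145 to 204 for fibroblasts and 293 to 339 against 105 to 125 for macrophages. Their part in the member differences was not tested.

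**Figure D3:**
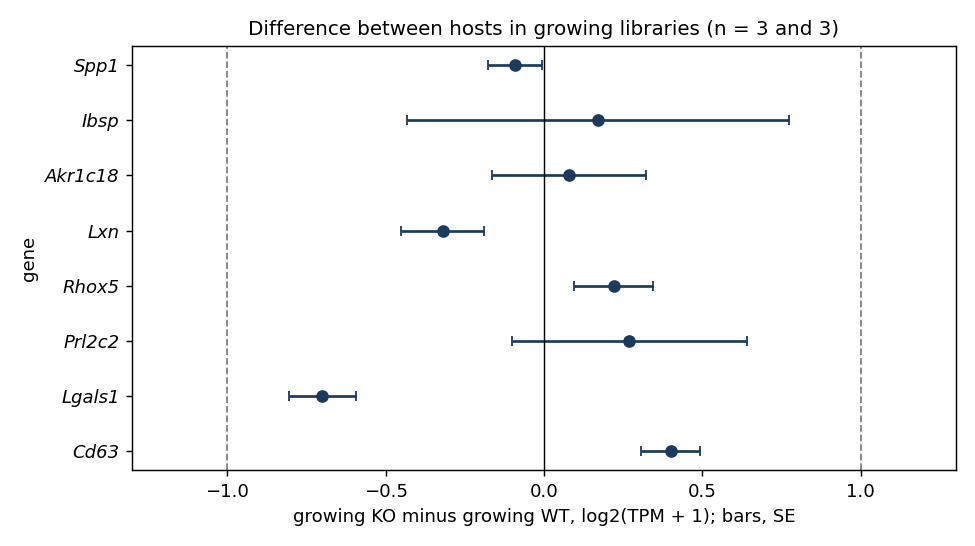
Difference of each member between growing KO and growing WT on the log2(TPM + 1) scale, with the SE of the limma fit and dashed lines at the difference required for a call. Lgals1 lies at -0.70 and Cd63 at 0.40, and all 8 members lie between the dashed lines.

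Together the 8 members made up 5.37% ± 0.0869 of all TPM in growing WT, 4.86% ± 0.211 in growing KO, 5.66% ± 0.592 in dormant WT and 0.403% ± 0.0252 in dormant KO (SD, n = 3 each). Spp1 alone was 60.4% to 63.1% of that sum in growing WT and 33.0% to 35.6% in dormant KO. Markers of lung and blood cells were high where 6 of the members were lowest. The summed TPM of 10 alveolar type 2 markers was 40207 to 42496 in dormant KO against at most 472 in any other library, with 8 markers at 1 TPM or more in all 3 libraries. The sum of 10 mesothelial markers was 13552 to 14903 against at most 567, with all 10 at 1 TPM or more. In these bulk aliquots fewer tumour cells and less of a transcript per tumour cell cannot be told apart, and the part of these other transcripts in the member values was not tested. Genes of the mammary carcinoma epithelium list did not move 1 way. Of 8 tested, 5 rose (Cldn3, Cldn7, Epcam, Krt19 and Krt7) and 1 fell (Krt8) in dormant KO against dormant WT. Of all genes 12.9% and 9.39% did, and the list median log2 difference was 2.56 beside 0.17. Against growing KO 3 rose (Cldn7, Krt19 and Krt7) and 2 fell (Krt8 and Krt18), beside 8.31% and 9.48% of all genes. Only Krt8 and Krt18 of the 11 listed were at 1 TPM or more in all 3 growing WT libraries. Krt7, Cldn3 and Cldn7 were at 0 there, Epcam reached 0.16 and Krt19 7.02 TPM. Cldn7 passed the filter only through dormant KO. Krt19 read 267, 418 and 252 TPM across dormant KO against at most 0.59 in dormant WT. Krt8 read 52.1, 106 and 79.9 against 183 to 381, and for Krt18 the dormant KO and dormant WT libraries overlapped. Several of these genes are also made by normal lung epithelium and mesothelium. Prl2c2 was listed at 92.7% of its growing level in the same dormant KO libraries, or 142% under median-ratio scaling. It was chosen by these values and shared 83.3% of its 50-base windows with other genes. What set it apart from the other members was not tested.

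Dormant WT differed in another way. Its alveolar type 2 sum was 77.5 to 141 TPM and 7 of 10 mesothelial markers were at 0, while 16 macrophage markers summed to 2380 to 2597 TPM, against 105 to 125 in growing WT, 293 to 339 in growing KO and 4587 to 5016 in dormant KO. Of the 16, 9 were at 1 TPM or more in all 3 dormant WT libraries. Lyz2, the gene whose promoter drives Cre in the KO hosts, led that list in dormant WT with a mean of 1080 TPM. Itgax was at 0 there, and Adgre1 (9.17, 0 and 0.77 TPM) and Csf1r (3.59, 0 and 0.14) were low. Macrophages are a known source of osteopontin and of Cd63, and the part of their transcripts in the member values was not tested. Erythroid markers (8 in the table) summed to 6206 to 7797 TPM in growing, 8988 to 13031 in dormant WT and 50865 to 56280 in dormant KO libraries, with Slc4a1 at 0 in the growing libraries.

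**Figure D4:**
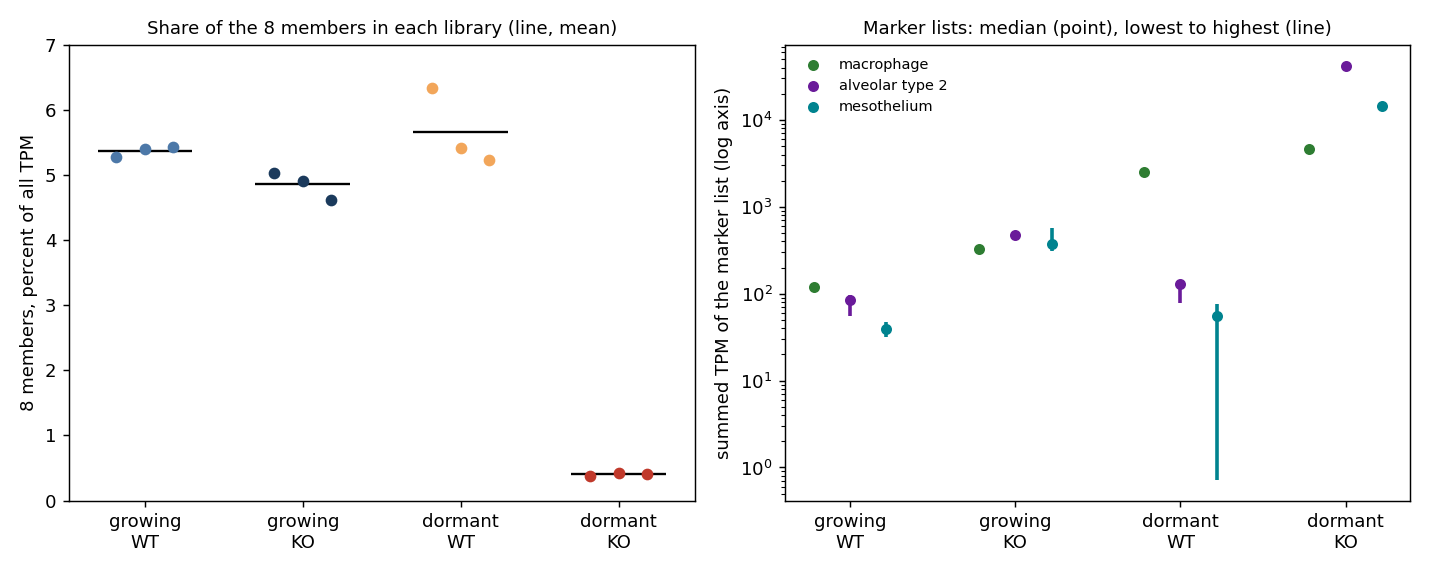
Left, summed TPM of the 8 members as a percentage of all TPM, with 1 point per library and a line at the group mean, and right, the summed TPM of macrophage, alveolar type 2 and mesothelial marker lists (log axis; point, median; line, lowest to highest of 3 libraries). The member share is 0.403% in dormant KO, the group with the highest marker sums.

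The receptors of osteopontin and bone sialoprotein were examined next, as genes that are no members and could be tested in each comparison. Counts in this and the following lists stand beside the shares of all genes called, which were 12.9% higher and 9.39% lower in dormant KO against dormant WT, 8.31% and 9.48% against growing KO, and 1.85% and 5.67% in dormant WT against growing WT. Of 10 receptor genes 7 passed the filter. In dormant KO against dormant WT 2 rose and 2 fell, the same 4 genes were called in the same directions against growing KO, and 0 were called in the other comparisons. Itgb1, the beta chain of many matrix receptors, read 50.3, 42.2 and 50.6 TPM across dormant KO against 232, 148 and 104 across dormant WT, a log2 difference of -1.66 (limma adjusted p = 0.00174). Against growing KO its difference was -1.22, which median-ratio scaling reduced to -0.63 with an adjusted p of 0.181 (limma). Itgb5, which pairs with the alpha V chain as an osteopontin receptor, read 13.4, 4.53 and 3.13 TPM across dormant KO and 39.2 to 42.5 across dormant WT, and fell by 2.60 in both comparisons (limma adjusted p = 0.00239 and 0.00303), the first not called with array weights (limma adjusted p = 0.0501).

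Itga8 and Itgb6 rose from near 0: Itga8 read 2.73, 4.85 and 2.19 TPM across dormant KO and at most 0.23 elsewhere, and Itgb6 at 7.97, 0.88 and 4.39. Itga8 passed the filter only through the dormant KO libraries. Itgb6 passed through dormant KO replicates 1 and 3 and growing WT replicate 2 (1.24 TPM). The filter thus favoured a rise in dormant KO for both, and their calls carry little weight. With a pseudocount of 5 neither reached the difference required for a call, and quantile normalization also ended both calls against dormant WT (limma adjusted p = 0.677 and 0.212). Cd44, the hyaluronan receptor that binds osteopontin, read 10.3, 10.1 and 3.69 TPM across dormant KO and 67.2, 11.1 and 23.0 across dormant WT, which did not pass (log2 -1.69, limma adjusted p = 0.0707) but did without dormant WT replicate 2 (log2 -2.27, limma adjusted p = 0.0102). Itgav, the alpha V chain, ranged from 3.19 to 47.8 TPM over the dormant libraries and was called in no comparison, and Itgb3 did not exceed 0.57 TPM.

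Enzymes that cleave or modify osteopontin came next. Of 9 such genes 6 were tested: 1 rose and 2 fell in dormant KO against dormant WT, 2 rose and 2 fell against growing KO, 2 rose in dormant WT, and 0 were called in growing cells. Mmp3, stromelysin-1, read 55.4, 59.2 and 39.6 TPM across growing WT and 35.4, 81.7 and 56.6 across growing KO. Dormant WT had 183, 158 and 654 TPM, and dormant KO 3.13, 1.35 and 5.37. The log2 difference in dormant KO was -6.08 against dormant WT (limma adjusted p = 2.51e-05) and -3.82 against growing KO (limma adjusted p = 0.000809), and in dormant WT it was 2.37 (limma adjusted p = 0.0289). The last call was lost without any 1 of the growing WT libraries, with limma adjusted p of 0.084, 0.0781 and 0.11 without replicates 1, 2 and 3. Mmp3 thus had dormant WT high and dormant KO low, as did Akr1c18 and Lxn.

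Mmp9, gelatinase B, fell by 3.32 in dormant KO against growing KO (limma adjusted p = 0.0053). Its lower level against dormant WT (-2.21, limma adjusted p = 0.0364) lost the call in 15 of 21 alternatives, 10 of which left out 1 library (limma adjusted p up to 0.145 there). Mmp12, the macrophage elastase, moved the other way and read 112, 190 and 102 TPM across dormant KO against at most 11.8 in the other libraries (log2 6.39 against dormant WT, limma adjusted p = 0.000389). Acp5, the tartrate-resistant phosphatase that removes phosphate from osteopontin, read 66.5, 62.2 and 78.1 TPM across dormant WT against 0, 0 and 2.25 across growing WT (limma adjusted p = 0.000734). Mmp12 and Acp5 are known products of macrophages. The macrophage marker sums were high in both dormant groups, where Acp5 was high as well, whereas Mmp12 was at most 2.61 TPM in dormant WT, and the part of macrophage transcripts in these values was not tested.

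**Figure D5:**
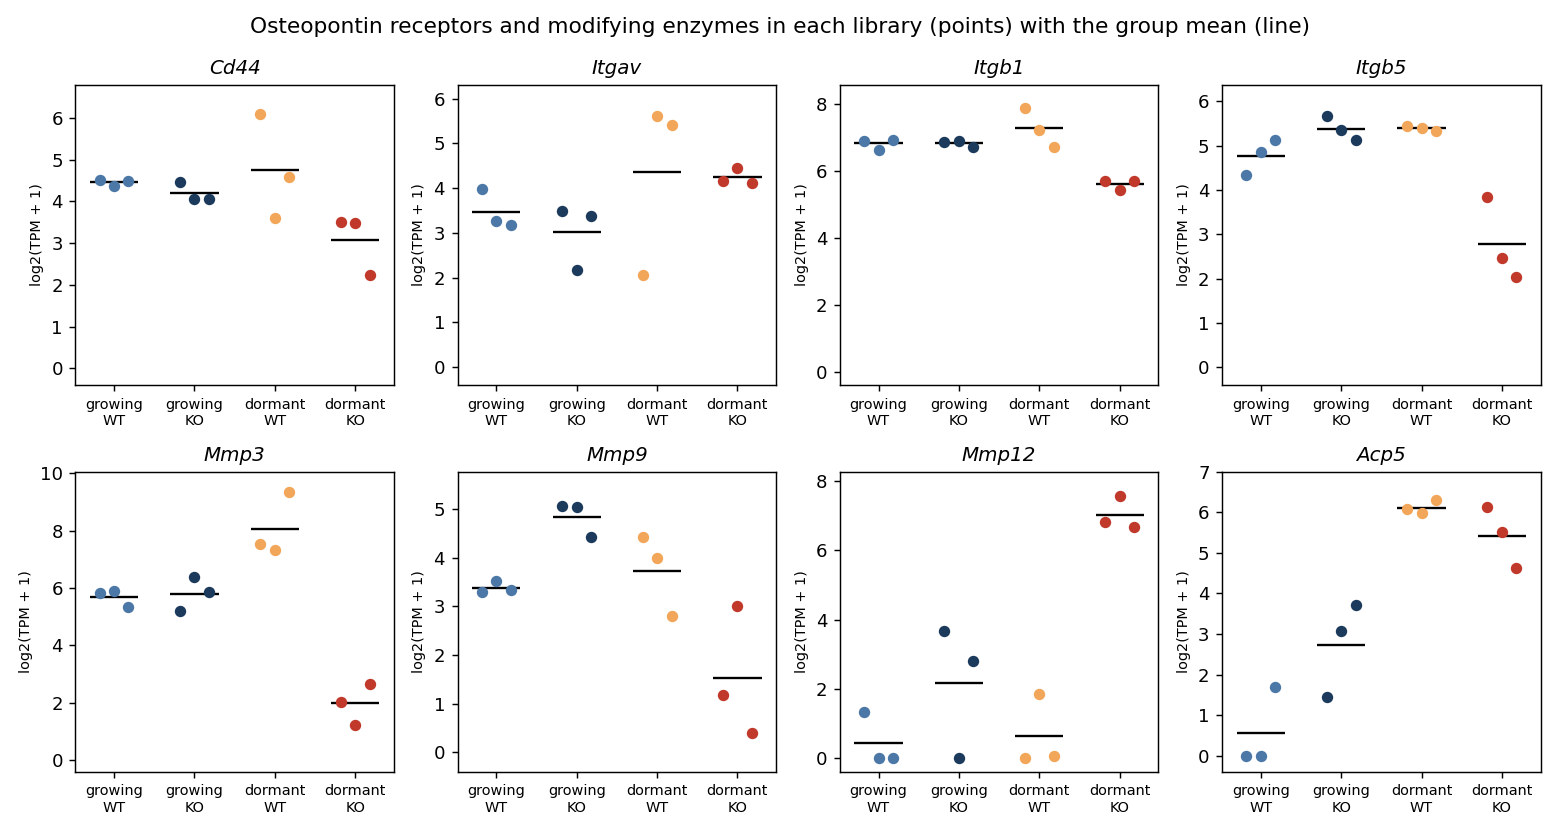
Levels of 4 osteopontin receptors and 4 enzymes that act on osteopontin as log2(TPM + 1), with 1 point per library and a line at the group mean (n = 3). Itgb1, Itgb5 and Mmp3 are lowest in dormant KO, Mmp12 is high in dormant KO, and Acp5 is high in both dormant groups.

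Of 11 bone matrix and osteoblast genes 7 were tested. Runx2, the osteoblast transcription factor, read 9.36, 4.83 and 35.0 TPM across dormant WT and 0.01, 0.29 and 0 across dormant KO (log2 -3.57, limma adjusted p = 0.0048), and was at 0.68 to 7.14 TPM in growing libraries. Runx2 was thus detected in dormant WT, where Ibsp was listed at 0. Bglap, osteocalcin, was at 0 in all 12 libraries, and Sparc, osteonectin, had group means of 265 to 467 TPM. Beside Runx2, 1 gene of this list was called in that comparison, in the other direction, and 0 in the other 3. This was Col1a2, at 29.4, 35.7 and 14.3 TPM across dormant KO and 0.93, 12.9 and 0 across dormant WT (log2 3.10, limma adjusted p = 0.0225).

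Among the relatives of Akr1c18, 8 of 16 other aldo-keto reductases were tested and none was called higher in any comparison. Called lower were 2 in dormant KO against dormant WT (Akr1b8 and Akr1e1), 2 against growing KO (Akr1b8 and Akr1c12) and 1 in dormant WT (Akr1c12). Akr1e1 read 9.03, 6.69 and 4.81 TPM across dormant KO and 11.7, 134 and 40.6 across dormant WT (log2 -2.44, limma adjusted p = 0.0244). Akr1b8 fell in dormant KO, to 43.4, 93.2 and 123 TPM, with a log2 difference of -1.79 against dormant WT (limma adjusted p = 0.00357, or 0.0601 with only the groups compared) and -1.60 against growing KO (limma adjusted p = 0.00859), the latter not called under median-ratio scaling (-1.01, limma adjusted p = 0.0878). Akr1c12, a neighbour in the Akr1c family, read 25.0, 28.4 and 24.3 TPM across growing WT and 0.29, 0 and 0 across dormant WT (limma adjusted p = 0.00803, or 0.0513 with array weights), so it was low in the group in which Akr1c18 was highest. In dormant KO Akr1c12 was at 0, 10.6 and 0 TPM, and its call against growing KO (limma adjusted p = 0.0119) was lost without dormant KO replicate 1 (limma adjusted p = 0.0574) or replicate 3 (0.0558). Akr1c13 read 26.8, 15.6 and 21.0 TPM across dormant KO against 113 to 136 across growing KO, without overlap, and was not called (log2 -2.49, SE 1.40, limma adjusted p = 0.259). Akr1a1, a general aldehyde reductase, had group means of 388 to 486 TPM.

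Rarres1, the homologue of latexin, was at 0 in the 6 WT libraries, at 7.34, 6.17 and 6.56 TPM across growing KO and 9.47, 18.8 and 0.22 in dormant KO. Its call in dormant KO against dormant WT (limma adjusted p = 0.0325) was lost without any 1 of the dormant WT libraries or without dormant KO replicate 1 or 2, with limma adjusted p of 0.0549 to 0.116. In growing cells it was not called (log2 2.94, limma adjusted p = 0.179), but was without dormant KO replicate 3 (limma adjusted p = 0.0116), with only the groups compared (0.00935) and with array weights (0.00754), and host and batch cannot be told apart here. Rarres1 was the 1 gene of this list of 9, otherwise carboxypeptidases, that passed the filter.

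Of the 28 genes in the list of the prolactin family and its receptors, 20 were at 0 in all 12 libraries, and only Prl2c3 and Igf2r were tested beside Prl2c2. Igf2r, the mannose 6-phosphate receptor that binds proliferin, read 24.9, 19.0 and 28.3 TPM across dormant WT against 4.28, 5.17 and 3.60 across growing WT (log2 2.22, limma adjusted p = 0.0129) and 1.74, 2.26 and 2.34 across dormant KO (log2 -2.99, limma adjusted p = 0.000568). It was therefore highest in the group where Prl2c2 was listed at 0. The first of these calls was lost without growing WT replicate 1 (limma adjusted p = 0.0543) or replicate 3 (0.0638). Prl2c3 rose in dormant KO against dormant WT (limma adjusted p = 0.0147), a call lost without dormant KO replicate 1 (0.0672) or 3 (0.0545). It fell in dormant WT against growing WT (limma adjusted p = 0.0358), a call that 13 of 21 alternatives lost, 7 of them leaving out 1 library (limma adjusted p of 0.0513 to 0.14 there).

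Of 8 tested galectins other than Lgals1, 2 rose and 1 fell in dormant KO against dormant WT, where 12.9% and 9.39% of all genes did, 1 rose and 1 fell against growing KO, and 0 were called in the other comparisons. Lgals7, an epithelial galectin, fell by 1.93 (limma adjusted p = 0.00599, or 0.0732 with only the groups compared) and, against growing KO, fell by 2.56 (limma adjusted p = 0.00131) to 7.03, 7.98 and 6.17 TPM, from 16.0 to 42.8 in dormant WT. Lgals2 read 66.7, 173 and 130 TPM across dormant KO against 0 in all 6 WT libraries. Lgals3, the most abundant after Lgals1, was at 523 to 990 TPM in dormant WT and 514 to 660 in dormant KO, against 1179 to 1270 and 832 to 936 in the growing libraries, differences that did not pass (limma adjusted p = 0.0838 and 0.0653).

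Among 23 tested tetraspanins other than Cd63, 9 rose and 0 fell in dormant KO against dormant WT (12.9% and 9.39% of all genes did), 10 rose and 0 fell against growing KO (8.31% and 9.48% did), 2 fell in dormant WT and 1 rose in growing KO. Their median log2 difference was 1.91 and 2.03 in the first pair of these comparisons, beside 0.17 and -0.32 over all genes, whereas Cd63 stood at -1.27 and -1.95. Markers of other cells rose in the same libraries. Against dormant WT the median log2 difference was 7.24 for mesothelial, 5.35 for alveolar type 2, 4.80 for lymphocyte, 3.97 for endothelial and 2.91 for neutrophil markers, and their part in the tetraspanin values was not tested. Upk1b, uroplakin-1b, and Tspan8 had the largest rises against dormant WT: Upk1b was at 175, 336 and 179 TPM and Tspan8 at 187, 185 and 239, both 0 in dormant WT. Upk1b is also on the mesothelial marker list, and it was the 1 tetraspanin called in growing KO, at 10.1, 15.4 and 25.5 TPM against 0 in growing WT (limma adjusted p = 0.00225). Tspan6 read 43.6, 38.8 and 49.7 TPM across dormant KO and at most 2.31 elsewhere. Tspan6 and Tspan18 (at most 0.75 TPM elsewhere), both among those that rose, passed the filter through the dormant KO libraries.

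Cd9, a tetraspanin that is found with Cd63 on exosomes, came nearest to it in level. Cd9 stood at 1027, 1011 and 1064 TPM in dormant KO against 2416, 2385 and 1504 in dormant WT (log2 -0.99, limma adjusted p = 0.000515) and 1696 to 1762 in growing KO (log2 -0.74, limma adjusted p = 0.00443). The first difference was just short of a call, and was called without dormant WT replicate 3 (-1.21) or dormant KO replicate 3 (-1.01). Median-ratio scaling reduced the 2 differences to -0.47 (limma adjusted p = 0.0546) and -0.14 (0.624). Cd81, another exosome tetraspanin, had group means of 342 to 451 TPM and was not called in any comparison. Tspan17 was at 0 in all 3 dormant WT libraries, as Ibsp and Prl2c2 were, against 14.0 to 35.4 TPM in growing WT (limma adjusted p = 0.000299). Tspan8 was also called lower in dormant WT (limma adjusted p = 0.0106), but not without growing WT replicate 2 (limma adjusted p = 0.0548).

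Of 14 tested partners of Cd63 in endosomes and exosome release, 1 rose and 1 fell in dormant KO against dormant WT, close to the 12.9% and 9.39% of all genes, 1 rose against growing KO, and 0 were called in the other comparisons. Timp1, a metalloproteinase inhibitor that binds Cd63, had group means of 311 to 346 TPM, Lamp1, a lysosomal membrane protein, of 196 to 227, and Sdcbp, the adaptor syntenin-1 that binds Cd63, of 237 to 301, and none of these 3 was called in any comparison. Rab27a, a GTPase of vesicle release, read 10.1, 7.07 and 6.47 TPM across dormant KO and is listed at 0 throughout dormant WT (limma adjusted p = 0.00115, or 0.0775 with array weights).

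Genes with the most alike pattern were named by Pearson's r of log2(TPM + 1) over the 12 libraries, among 1460 tested genes with a growing mean of at least 100 TPM, as a description in which 4 groups set most of the spread. Spp1 was most like Akr1c18 (0.995), Aspa, aspartoacylase (0.992), and Capg, an actin-capping protein (0.99). Aspa was also near Akr1c18 (0.994) and Lxn (0.989), and had group means of 275, 228, 327 and 11.8 TPM in growing WT, growing KO, dormant WT and dormant KO. Lgals1 was most like Eif4e (0.99), the cap-binding translation factor, Cd63 most like Psmd4 (0.988), a proteasome subunit, and Rhox5 most like S100a10 (0.986). Prl2c2 was most like Rps15 (0.952), a ribosomal protein, at 545 TPM in dormant WT against 1094 to 1241 in the other groups. Ibsp was most like Snrpd1 (0.976), a splicing factor, at 276 and 289 TPM in growing and 107 and 147 in dormant groups. Pairs of the 6 members without Ibsp and Prl2c2 had r of 0.84 to 0.995, Ibsp and Prl2c2 had 0.69, and Prl2c2 had -0.47 to -0.07 with the other 6.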

How the data were processed

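Expression was measured by RNA-seq of polyadenylated RNA (the labels name TruSeq and the methods Smart-seq2 for the libraries). The authors deposited TPM values, with 1 column per library, estimated by RSEM from STAR alignments to mm10 (versions 1.3.3 and 2.5.2b in the submitters' processing notes, while the methods name another RSEM version). These values sum to the same total in each library and hold no depth. The table also held 30 columns that match no labelled sample and were not used, among them the 6 named as batch 2 WT, so batch was not separated from host. Genes with at least 1 TPM in 3 libraries (13002) were tested on log2(TPM + 1) with limma 3.58.1 in R 4.3.3, using its trend option, all 12 libraries in 1 fit and Benjamini-Hochberg adjustment within each comparison. Replicate numbers come from the labels.

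The members and gene lists were chosen with earlier results of these data known. Named genes were the members, a set panel of their partners and relatives, up to 2 called genes per list, comparison and direction with the largest difference and no overlap of libraries, and the 3 genes most like each member. Values cited from alternatives use other pseudocounts, filters, scalings (median ratio, quantile), array weights, only the groups compared, or all libraries but 1. Sequence sharing was read in 50-base windows of GENCODE M21 transcripts (GRCm38), whereas the methods name an M12 annotation. In simulated data with 200 genes changed by 3 log2 units between growing KO and growing WT among 13002, 56.5% were recovered, with 4 false calls.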

Additional observations from a re-analysis of the deposited data

Results flagged for a closer look

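Some of the named genes had opposite signs of the difference between dormant and growing cells in the WT and KO hosts, with every dormant library of 1 host above and every one of the other below its growing group. The difference between hosts was not tested, and host cannot be told apart from batch. Akr1c18 had a log2 difference between dormant and growing cells of 0.55 in WT hosts and -6.49 in KO hosts, and Lxn had 0.43 and -3.59, both members chosen by these values. Among the other genes named by the rule for partners and lists, the same held for Itgb5 (0.62 and -2.60), Mmp3 (2.37 and -3.82), Tspan8 (-2.38 and 4.04) and Rab27a (-1.22 and 1.87), and the remaining genes of the table were not screened for it. In WT hosts Itgb5 (limma adjusted p = 0.479) and Rab27a (0.187) did not pass the test. The call of Mmp3 in WT hosts was lost without any 1 growing WT library (limma adjusted p of 0.0781 to 0.11) and that of Tspan8 without growing WT replicate 2 (0.0548).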

How the results depend on the processing

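Numbers of called genes moved with the setting. As fitted, 127 genes were called in growing KO against growing WT, 2898 in dormant KO against dormant WT, 977 in dormant WT against growing WT and 2313 in dormant KO against growing KO. With only the groups compared the first became 308 and the second 1680. Array weights gave 516, 1418, 310 and 3586. Without the filter the third was 637. Leaving out 1 library at a time gave 66 to 163, 2160 to 3617, 447 to 1918 and 1551 to 3117. The first fell to 69, 75 and 67 without growing WT replicates 1, 2 and 3, and to 68, 66 and 78 without growing KO replicates 1, 2 and 3. The third became 1918 without dormant WT replicate 1, and 481, 454 and 447 without growing WT replicates 1, 2 and 3. The share of called genes that were higher moved from 57.9% to 74% (median ratio) or 50.1% (quantile) in the second comparison, from 24.6% to 50.6% (quantile) in the third and from 46.7% to 69.2% (median ratio) or 56.9% (quantile) in the fourth. The cause was not tested.

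The difference of Akr1c18 between growing hosts ran from -0.01 (without growing KO replicate 1) to 0.15. Median-ratio scaling moved the percentage of the growing level kept in dormant KO to 6.72 for Spp1, 1.65 for Akr1c18, 12.5 for Lxn, 12.1 for Rhox5, 142 for Prl2c2, 33.5 for Lgals1 and 39.1 for Cd63, and in dormant WT to 87.6 for Cd63. Quantile normalization moved it in dormant WT to 0.433 for Ibsp, 97.8 for Lxn, 0.385 for Prl2c2 and 95.3 for Cd63, and in dormant KO to 128 for Prl2c2 and 18.2 for Lgals1.

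Deviations of samples with the same replicate number had correlations from -0.014 to 0.021. In dormant KO against growing KO these were 0.021, 0.019 and 0.011, and those of unlike numbers were all negative. Values this small in groups of 3 cannot decide whether the numbers pair samples, and the main fit did not pair them. With the replicate block 86, 2722, 751 and 2116 genes were called. The depth behind each value is unknown, so levels listed at 0 carry no limit of detection.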
